A study of Sus scrofa with 48 samples.

Results

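The antioxidant, glutathione and thioredoxin system was described in the longissimus muscle of 48 pigs, as a set of 47 genes that clear reactive oxygen species, keep thiols reduced or respond to oxidants. The genes were taken by name, as every non-control probe of the microarray that carried one of the 47 symbols as its gene name or in brackets in its description. This gave 192 probes. A probe was kept for testing when 12 or more of the 48 arrays had its spot well above background, which left 180 probes of 44 genes among the 42125 tested probes of the whole array, out of 60305 distinct probes. The 12 probes left out included every probe of SOD3, GPX5 and GSTA1, for which no level is given. The pigs were purebred Large White barrows of 2 lines, divergently selected for low or high residual feed intake (RFI), the feed eaten beyond what growth and maintenance predict. Pigs of each line ate at will either of 2 diets, HF (high in fat and fiber) or LF (low in fat and fiber), with 12 pigs for each line and diet and 1 array for each pig. The labels give no age. Each line is a single selected population, so that selection and chance drift of the line cannot be told apart, and the effects of fat and fiber cannot be told apart either.

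Superoxide dismutases turn superoxide into hydrogen peroxide, and catalase, glutathione peroxidases and peroxiredoxins remove the peroxide. Glutathione and thioredoxin supply the electrons, and glutathione reductase and the thioredoxin reductases recharge them with NADPH, while glutaredoxins and glutathione S-transferases act on glutathionylated proteins and on reactive compounds. The factor NRF2 (NFE2L2), held back by KEAP1, switches on many of these genes, and several of the enzymes carry selenium. Skeletal muscle makes oxidants in its mitochondria and membranes at rest and during contraction.

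Levels are log2 processed signals from which the mean over the tested probes of the same array was subtracted, so that a level of 0 is that array's mean, and levels of different probes are not compared. The median processed signal of an array ranged from 52.8 to 107.9 units, and 59.2% to 74.2% of an array's probes gave a signal well above background. The 6 slides each held 2 arrays of every line and diet, and the arrays were scanned on 2 days. All 9 skeletal muscle marker genes had tested probes. Differences between lines are given as high minus low RFI, averaged over both diets, with the standard error (SE) and limma's p-value after Benjamini-Hochberg adjustment over all tested probes, and a probe is said to differ when the adjusted p was under 0.05. In whole muscle, fewer cells of a type and less RNA per cell cannot be told apart.

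The lines differed for 52 of the 180 antioxidant probes (28.9%), against 16.4% of all tested probes. The level was higher in the high RFI line for 42 of them, where 6.57% of all tested probes were higher, and lower for 10, where 9.85% of all tested probes were lower. The median difference was 0.07 over the antioxidant probes and -0.03 over all tested probes. The 52 probes belong to 15 genes. GLRX, GPX2, GPX3, GSTM3, HMOX1, PRDX1, PRDX3, SELM, SEPP1, SOD2 and TXNIP had probes with more signal in the high RFI line, and GSTK1, NQO1, PRDX4 and PRDX5 had probes with less. When each gene was read at its brightest probe, 13 of 44 genes differed, 9 higher and 4 lower, beside 15.7% of the gene names of the array read in the same way. The median difference over the 44 genes was then 0.01. Every tested probe differed in 7 of the 15 genes, some but not all did in 8, and 4 genes had tested probes of both signs. Many probes of a gene cover the same bases. The 180 probes, each 60 bases long, make up 126 separate stretches when probes that share at least 15 bases are joined, so that the count of probes is not a count of independent measurements. All 52 differences had the same sign on both diets and on both scan days, and 34 had the same sign on all 6 slides. The 52 were chosen by the average over these same pigs, so that such agreement follows in part from the choice and is no replication. For none of the 52 did the 24 pigs of one line lie clear of the 24 pigs of the other. Overlap was not counted over all tested probes.

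**Figure D1:**
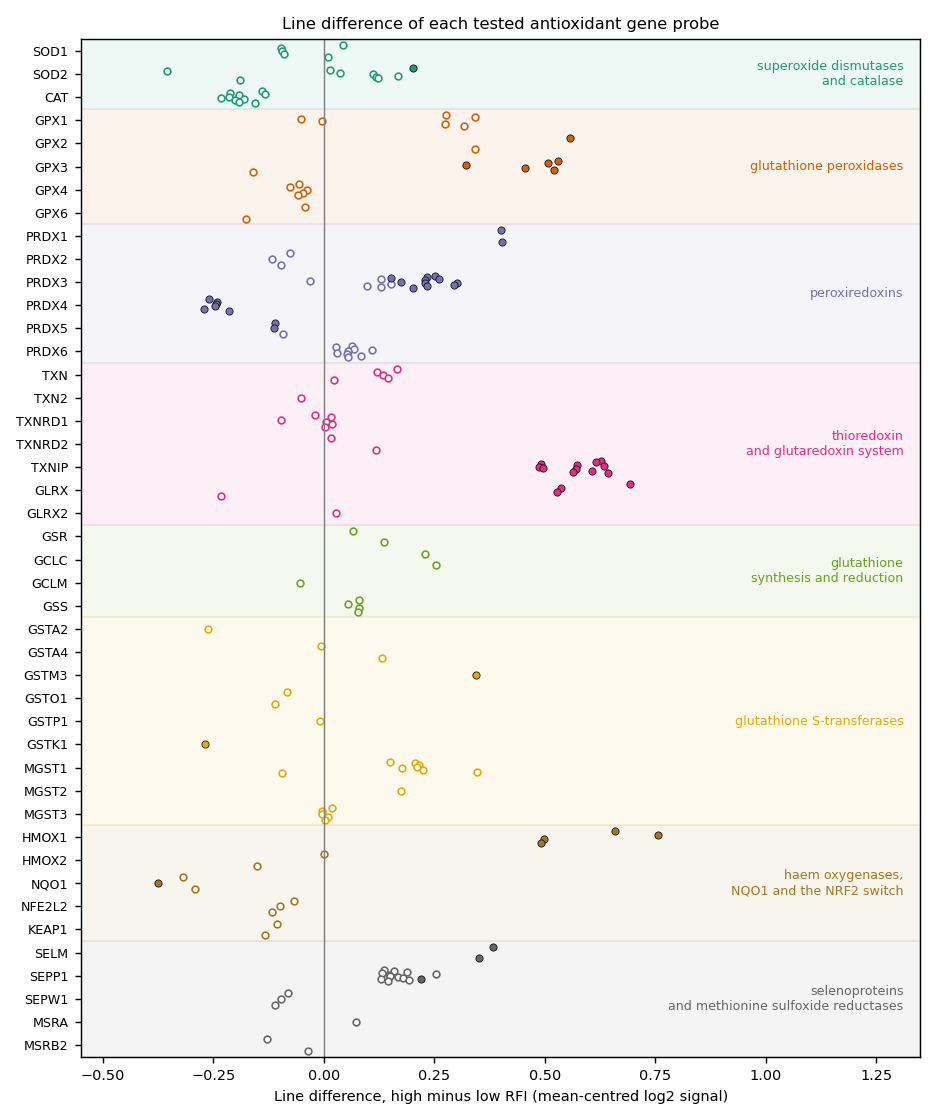
Line difference (high minus low RFI, log2 scale, x axis) of the 180 tested probes, by gene on the y axis and by role in coloured bands; filled points are probes with an adjusted p under 0.05 (limma). All 11 TXNIP probes and all 6 PRDX4 probes are filled, on opposite sides of 0, and the 10 CAT probes are open.

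Within the thioredoxin and glutaredoxin system, 14 of 30 tested probes differed between lines (46.7%, against 16.4% of all tested probes), all of them higher in the high RFI line. The median difference was 0.16 over the probes, and 0.03 over the brightest probes of the 7 genes. The 14 probes belong to GLRX and TXNIP. GLRX encodes glutaredoxin, which removes glutathione from protein thiols. At its brightest probe, the lowest, median and highest levels were 0.94, 1.34 and 1.64 in low RFI pigs fed the HF diet. They were 1.13, 2.12 and 2.66 in high RFI pigs fed the same diet. On the LF diet, they were 1.19, 1.66 and 2.20 in low RFI pigs and 1.74, 2.17 and 2.97 in high RFI pigs. The lines overlapped on both diets, but 23 of the 24 high RFI pigs lay above the mean of the low RFI pigs, and 11 lay above every low RFI pig. The difference was 0.69 (SE 0.11, limma adjusted p = 2.21e-05), a 1.62-fold higher signal, and it was largest in absolute size among the brightest probes of the 44 genes. With the mean of its 4 probes in place of the brightest, GLRX differed by 0.38, less than HMOX1 (0.60), TXNIP (0.57), GPX2 (0.45) and PRDX1 (0.40) read in the same way. That GLRX mean takes in O8762, the 1 probe with a negative difference (-0.23), while the other 3 had 0.53 to 0.69. The order of the genes with O8762 left out was not tested. The GPX2 mean takes in a probe that lies on the strand opposite to its brightest probe (0.34). At the brightest GLRX probe, the HF diet gave a difference of 0.69 (limma adjusted p = 0.00724). The LF diet gave 0.70 (limma adjusted p = 0.00733), and over the 6 slides the difference ranged from 0.45 to 1.05.

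The other GLRX probes did not all follow. A_72_P659349 was higher by 0.53 and A_72_P514974 by 0.54 in the high RFI line (limma adjusted p = 0.000287 and 0.00367). O8762 had a difference of -0.23 (SE 0.10, adjusted p = 0.105), negative on 6 of 6 slides. The brightest probe and 2 of the others are printed to show that they share no stretch of 15 bases. The files do not state which strand O8762 reads, and its sequence was not matched to a transcript.
A_72_P441788: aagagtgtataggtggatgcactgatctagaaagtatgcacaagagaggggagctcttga
A_72_P659349: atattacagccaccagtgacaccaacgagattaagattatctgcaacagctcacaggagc
O8762: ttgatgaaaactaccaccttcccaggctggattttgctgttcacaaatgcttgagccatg

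TXNIP encodes the thioredoxin-interacting protein, which binds reduced thioredoxin and restrains glucose uptake. At its brightest probe, the lowest, median and highest levels were 5.96, 6.36 and 7.18 in low RFI pigs fed the HF diet and 4.65, 7.39 and 7.77 in high RFI pigs fed the same diet. On the LF diet they were 5.76, 6.71 and 7.18 in low RFI pigs and 6.06, 6.84 and 7.58 in high RFI pigs. The high RFI group on the HF diet therefore held both the highest median and the lowest single pig. The difference was 0.50 (SE 0.16, limma adjusted p = 0.0309), a 1.41-fold higher signal in the high RFI line, where 21 of 24 pigs lay above the low RFI mean. All 11 TXNIP probes, which make 8 separate stretches, were higher in the high RFI line, by 0.49 to 0.64. On the HF diet the differences were 0.71 to 0.96 and passed the threshold at 9 of the 11 probes. On the LF diet they were 0.25 to 0.34 and passed it at none. The difference between the diets was itself tested, and the interaction had an unadjusted p of 0.203 at the brightest probe and no less than 0.064 at any of the 11 (limma).

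The rest of this system did not pass the threshold. Thioredoxin itself (TXN) had 5 positive differences of 0.02 to 0.16, with a lowest adjusted p of 0.215 (limma). Its probe O7867 is the reverse complement of A_72_P177678 over 59 bases, and both were well above background on 48 of 48 arrays. The brightest probes of the other genes differed by -0.05 in the mitochondrial thioredoxin TXN2, measured above background on 20 arrays, and by 0.03 in the mitochondrial glutaredoxin GLRX2. The reductases TXNRD1 (-0.10 to 0.02 over 6 probes) and TXNRD2 (0.02 to 0.12 over 2 probes) lay near the median of all tested probes.

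Peroxiredoxins, which reduce peroxides through a reactive cysteine, moved in both directions. Of 39 tested probes of 6 genes, 13 showed more and 8 less signal in high RFI pigs (53.8% together, against 16.4% of all tested probes). The median difference was 0.07 over the probes, and -0.01 over the brightest probes of the 6 genes. PRDX1, the main cytosolic form, was measured by 2 probes. At the brighter one, the lowest, median and highest levels were 3.23, 3.50 and 3.93 in low RFI pigs fed the HF diet and 3.44, 3.94 and 4.42 in high RFI pigs fed the same diet. On the LF diet they were 3.50, 3.82 and 4.02 in low RFI pigs and 4.06, 4.20 and 4.50 in high RFI pigs, so that the lines did not overlap on the LF diet. Over both diets 17 of 24 high RFI pigs lay above every low RFI pig. The difference was 0.40 (SE 0.06, limma adjusted p = 9.93e-06), a 1.32-fold higher signal, with 0.39 on the HF diet (adjusted p = 0.00569), 0.41 on the LF diet (adjusted p = 0.00416) and 0.34 to 0.48 over the slides.

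Both PRDX1 probes gave the same difference, and their sequences show why they are not separate measurements. They share the 45 bases in capitals.
A_72_P412538: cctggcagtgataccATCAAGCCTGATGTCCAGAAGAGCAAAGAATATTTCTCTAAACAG
O9257: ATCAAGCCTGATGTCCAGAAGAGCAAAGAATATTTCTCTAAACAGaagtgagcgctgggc

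PRDX4, the peroxiredoxin of the endoplasmic reticulum, was lower in the high RFI line at 6 of 6 probes, by 0.22 to 0.27 in absolute value. At the brightest probe, the lowest, median and highest levels were 5.07, 5.23 and 5.57 in low RFI pigs and 4.57, 5.05 and 5.21 in high RFI pigs fed the HF diet. They were 4.87, 5.19 and 5.38 in low RFI pigs and 4.64, 4.93 and 5.19 in high RFI pigs fed the LF diet. The groups overlapped, and all 24 high RFI pigs lay below the mean of the low RFI pigs. The difference was -0.26 (SE 0.05, limma adjusted p = 0.000323), a 1.2-fold higher signal in the low RFI line. It was -0.26 on the HF diet (adjusted p = 0.025) and -0.26 on the LF diet (adjusted p = 0.0319).

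PRDX3, the mitochondrial peroxiredoxin, was higher in the high RFI line at 11 of 16 probes, and 15 of the 16 differences were positive, from -0.03 to 0.30. At the brightest probe, the lowest, median and highest levels on the HF diet were 5.37, 5.73 and 5.97 in low RFI pigs and 5.69, 5.92 and 6.25 in high RFI pigs. With the LF diet they were 5.43, 5.76 and 6.11 in low RFI pigs and 5.53, 5.88 and 6.14 in high RFI pigs. The groups overlapped widely. The difference at this probe was 0.15 (SE 0.05, limma adjusted p = 0.043), a 1.11-fold higher signal, and positive on 6 of 6 slides. PRDX3 passed the threshold on the HF diet at 4 probes and on the LF diet at none. PRDX5, found in mitochondria, peroxisomes and cytosol, was lower in the high RFI line at 2 of 3 probes. At the brightest, the medians on the HF diet were 4.51 in low RFI pigs (4.43 to 4.77) and 4.38 in high RFI pigs (4.21 to 4.60), and on the LF diet 4.57 (4.35 to 4.68) and 4.45 (4.33 to 4.62). The difference was -0.11 (SE 0.03, limma adjusted p = 0.011). The call was lost with quantile normalization and with normexp background correction, where the difference was -0.08 and -0.07. The other 2 PRDX5 probes hold the same 60 bases, and had differences of -0.11 (adjusted p = 0.0295) and -0.09 (adjusted p = 0.0776), on either side of the threshold. PRDX6 had 9 positive differences of 0.03 to 0.11, and the cytosolic PRDX2 had 3 negative differences of -0.12 to -0.08, with no probe past the threshold.

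**Figure D2:**
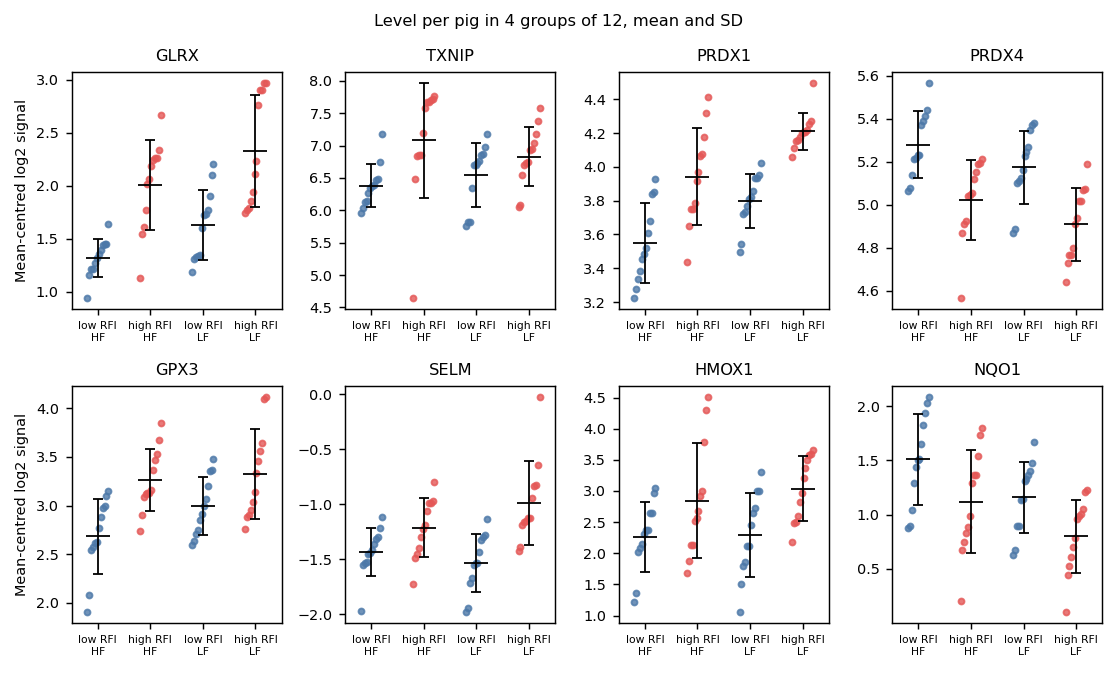
Mean-centred log2 signal (y axis) of the brightest probe of 8 genes in each of the 48 pigs, with the mean and SD of the 12 pigs of each line and diet (x axis; blue, low RFI; red, high RFI). GLRX, TXNIP, PRDX1, GPX3, SELM and HMOX1 have higher means and PRDX4 and NQO1 lower means in the high RFI line on both diets, and only the PRDX1 lines on the LF diet do not overlap (4.06 against 4.02).

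Glutathione peroxidases reduce hydrogen peroxide and lipid peroxides with glutathione. High RFI pigs had a higher level at 6 of the 21 tested probes (28.6%, against 6.57% of all tested probes) and a lower level at none. The median difference was 0.28 over the probes, and -0.04 over the brightest probes of the 5 tested genes. GPX8, which had a lower level, is counted below with the other thiol and glutathione enzymes. GPX3, the secreted form, was higher at 5 of 6 probes, by 0.32 to 0.53. At its brightest probe, the lowest, median and highest levels were 1.91, 2.70 and 3.15 in low RFI pigs and 2.74, 3.15 and 3.84 in high RFI pigs fed the HF diet. They were 2.60, 2.96 and 3.48 in low RFI pigs and 2.76, 3.24 and 4.12 in high RFI pigs fed the LF diet. The groups overlapped, with 22 of 24 high RFI pigs above the low RFI mean. The difference was 0.45 (SE 0.11, limma adjusted p = 0.00241), a 1.37-fold higher signal, with 0.58 on the HF diet (adjusted p = 0.0171) and 0.33 on the LF diet (adjusted p = 0.244). The interaction had an unadjusted p of 0.247 at this probe (limma). The sixth GPX3 probe, O9216, had a difference of -0.16 (limma adjusted p = 0.0889). The files do not state which strand it reads, and its sequence was not matched to a transcript.

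GPX2, the form known from the gut lining, was measured by 2 probes. At the brighter one, the lowest, median and highest levels were -2.30, -1.30 and -0.68 in low RFI pigs and -1.87, -0.92 and 0.64 in high RFI pigs fed the HF diet. They were -1.98, -1.48 and -1.11 in low RFI pigs and -1.93, -0.99 and 0.08 in high RFI pigs fed the LF diet. The groups overlapped, with 21 of 24 high RFI pigs above the low RFI mean, and the difference was 0.56 (SE 0.15, limma adjusted p = 0.01), a 1.47-fold higher signal. The other probe gave 0.34 (SE 0.17, adjusted p = 0.169). The 2 probes lie on opposite strands. The 19 bases in capitals are reverse complements of each other, and the files do not say which strand the labelled RNA pairs with.
A_72_P144826: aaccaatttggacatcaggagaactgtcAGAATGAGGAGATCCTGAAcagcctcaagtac
O12013: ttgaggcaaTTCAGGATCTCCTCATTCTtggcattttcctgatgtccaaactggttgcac

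The probes of GPX1, the most widespread glutathione peroxidase, fell into 2 sets. Its 2 brightest probes had differences of -0.05 and -0.01 and an SD within groups of 0.19 and 0.22, while the other 4 had differences of 0.28 to 0.34 and SDs of 0.60 to 0.63. None of the 6 passed the threshold (lowest limma adjusted p = 0.184). GPX4, which protects membrane lipids, had 5 negative differences of -0.08 to -0.04, and GPX6 had 2, of -0.18 and -0.04, none past the threshold.

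Among superoxide dismutases and catalase, 1 of 24 tested probes differed between lines (4.17%, against 16.4% of all tested probes). The median difference was -0.11 over the probes, and 0.04 over the brightest probes of the 3 tested genes. The probe that differed was of SOD2, the mitochondrial dismutase. Its lowest, median and highest levels were 2.53, 3.12 and 3.36 in low RFI pigs and 2.99, 3.30 and 3.72 in high RFI pigs fed the HF diet. With the LF diet they were 2.39, 3.13 and 3.62 in low RFI pigs and 2.99, 3.27 and 3.56 in high RFI pigs, with wide overlap. The difference was 0.20 (SE 0.07, limma adjusted p = 0.0427). The brightest of the 9 SOD2 probes had a difference of 0.04 (adjusted p = 0.761) and another had -0.36 (SE 0.15, adjusted p = 0.0987), and the mean over the 9 probes had 0.03, so that the gene as a whole is not said to differ. The probe with -0.36 (A_72_P444413) is the reverse complement of O14696 over 22 bases, and O14696, above background on 19 arrays, had the other negative SOD2 value (-0.19). The files do not state which of these strands is read. Catalase (CAT), the peroxisomal enzyme, had 10 negative differences of -0.23 to -0.13 over 5 separate stretches, with a lowest adjusted p of 0.137 (limma). SOD1, the cytosolic dismutase, had 5 differences of -0.10 to 0.04.

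The genes that make and recycle glutathione did not pass the threshold at any of 9 tested probes, with a median difference of 0.08. GCLC, the catalytic subunit of glutamate-cysteine ligase, had differences of 0.25 (SE 0.11, limma adjusted p = 0.0996) and 0.23 (adjusted p = 0.190). Its modifier subunit GCLM had -0.05, glutathione synthetase (GSS) had 0.05 to 0.08 over 4 probes, and glutathione reductase (GSR) had 0.07 and 0.14.

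Glutathione S-transferases, which attach glutathione to reactive compounds, had 2 of 22 tested probes past the threshold, 1 in each direction, with a median difference of 0.01. This was 9.09%, a smaller share than the 16.4% of all tested probes. GSTK1, the mitochondrial and peroxisomal form, was measured by 1 probe. Its lowest, median and highest levels were 4.55, 4.78 and 5.12 in low RFI pigs and 3.94, 4.62 and 4.90 in high RFI pigs fed the HF diet. They were 4.37, 4.78 and 4.96 in low RFI pigs and 4.10, 4.39 and 4.89 in high RFI pigs fed the LF diet, and 7 high RFI pigs lay below every low RFI pig. The difference was -0.27 (SE 0.07, limma adjusted p = 0.00414), a 1.21-fold higher signal in the low RFI line, with -0.20 on the HF diet (adjusted p = 0.171) and -0.33 on the LF diet (adjusted p = 0.0406). GSTM3 was also measured by 1 probe. Its lowest, median and highest levels were -0.43, 0.02 and 0.25 in low RFI pigs and -0.61, 0.52 and 1.03 in high RFI pigs fed the HF diet. They were -0.36, 0.11 and 0.73 in low RFI pigs and -0.51, 0.56 and 1.09 in high RFI pigs fed the LF diet. High RFI pigs held the highest and the lowest levels on both diets, with a difference of 0.34 (SE 0.11, limma adjusted p = 0.0243), a 1.27-fold higher signal.

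Of the remaining transferases, GSTA2 and MGST2 varied most between pigs. GSTA2 had the largest SD within groups of the 44 genes at the brightest probe (1.30), but it was well above background on 13 arrays, with 2 to 4 arrays in each group. Its lowest, median and highest levels were -6.43, -4.73 and -1.37 in low RFI pigs and -6.49, -5.51 and -1.05 in high RFI pigs fed the HF diet. They were -6.24, -4.84 and -2.81 in low RFI pigs and -5.97, -5.25 and -2.82 in high RFI pigs fed the LF diet. The groups overlapped almost entirely, and the difference of -0.26 did not pass the threshold (limma adjusted p = 0.663). The same probe also lists an accession of GSTA1. MGST2, a membrane-bound transferase, had an SD of 0.71. Its lowest, median and highest levels were 1.24, 2.83 and 3.40 in low RFI pigs and 1.93, 3.20 and 3.91 in high RFI pigs fed the HF diet. With the LF diet they were 1.70, 2.90 and 3.88 in low RFI pigs and 0.61, 2.91 and 4.03 in high RFI pigs. Its difference of 0.17 (SE 0.20) had an adjusted p of 0.590 (limma), with 0.50 in the pigs fed the HF diet and -0.15 in those fed the LF diet. MGST1 had a difference of -0.09 at its brightest probe (adjusted p = 0.0804) and of 0.15 to 0.35 at the other 7, none past the threshold. MGST3, GSTP1, GSTO1 and GSTA4 lay between -0.11 and 0.13.

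Haem oxygenases, NQO1 and the NRF2 switch had 5 of 14 tested probes past the threshold (35.7%, against 16.4% of all tested probes), 4 higher and 1 lower. The median difference was -0.10. HMOX1, the inducible enzyme that breaks down haem, was higher in the high RFI line at 4 of 4 probes, by 0.49 to 0.76. At its brightest probe, the lowest, median and highest levels were 1.21, 2.34 and 3.05 in low RFI pigs and 1.68, 2.62 and 4.52 in high RFI pigs fed the HF diet. They were 1.06, 2.29 and 3.30 in low RFI pigs and 2.18, 3.09 and 3.66 in high RFI pigs fed the LF diet. The groups overlapped, with 19 of 24 high RFI pigs above the low RFI mean and 8 above every low RFI pig. The difference was 0.66 (SE 0.19, limma adjusted p = 0.0148), a 1.58-fold higher signal, and the SD within groups was 0.69. Within a diet it did not pass the threshold (0.58 on the HF diet, adjusted p = 0.182, and 0.74 on the LF diet, adjusted p = 0.139). The markers of macrophages, cells that also make HMOX1, had a median line difference of 0.51 over 23 probes. They were not compared with HMOX1 pig by pig, and their part in the result was not tested.

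NQO1 reduces quinones and is a known NRF2 target. At its brightest probe, the lowest, median and highest levels were 0.88, 1.51 and 2.09 in low RFI pigs and 0.20, 1.14 and 1.80 in high RFI pigs fed the HF diet. They were 0.63, 1.23 and 1.67 in low RFI pigs and 0.10, 0.87 and 1.22 in high RFI pigs fed the LF diet. The groups overlapped, with 19 of 24 high RFI pigs below the low RFI mean. The difference was -0.37 (SE 0.11, limma adjusted p = 0.017), a 1.3-fold higher signal in the low RFI line, but it was negative on 4 of 6 slides only, from -1.08 to 0.15. The other tested probes gave -0.32 (adjusted p = 0.0615) and -0.29 (adjusted p = 0.0820). The untested probe O14371 was above background on 0 of 48 arrays. It is the reverse complement of A_72_P553981, well above background on 48 arrays, over the 55 bases in capitals, so that for NQO1 the 2 strands gave opposite outcomes on the same arrays.
A_72_P553981: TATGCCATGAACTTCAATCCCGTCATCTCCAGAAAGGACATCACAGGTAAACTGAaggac
O14371: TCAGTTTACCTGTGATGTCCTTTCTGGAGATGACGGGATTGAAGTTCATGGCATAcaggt

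The constitutive haem oxygenase HMOX2 had differences of 0.00 and -0.15 (lowest limma adjusted p = 0.0674). NFE2L2 had 3 negative differences of -0.12 to -0.07 and KEAP1 had -0.13 and -0.11, with lowest adjusted p-values of 0.120 and 0.0712.

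Selenoproteins and methionine sulfoxide reductases had 3 of 21 tested probes past the threshold (14.3%), all higher in the high RFI line. Over all tested probes, 16.4% differed and 6.57% were higher. Of the 3 probes, 2 were of SELM and share 59 bases. The median difference was 0.15 over the probes, and 0.07 over the brightest probes of the 5 genes. SELM is a selenoprotein of the endoplasmic reticulum with a thioredoxin-like fold. At its brighter probe, the lowest, median and highest levels were -1.97, -1.43 and -1.12 in low RFI pigs and -1.72, -1.20 and -0.80 in high RFI pigs fed the HF diet. They were -1.98, -1.53 and -1.13 in low RFI pigs and -1.42, -1.12 and -0.02 in high RFI pigs fed the LF diet. The groups overlapped, with 22 of 24 high RFI pigs above the low RFI mean. The difference was 0.38 (SE 0.08, limma adjusted p = 0.0011), a 1.3-fold higher signal, and positive on 6 of 6 slides. It shrank to 0.24 with normexp background correction (adjusted p = 0.00262) and to 0.28 in the deposited log2 table. It was 0.22 on the HF diet (adjusted p = 0.236) and 0.55 on the LF diet (adjusted p = 0.00493). The other probe is the same stretch moved by a single base, with the 59 shared bases in capitals, and gave 0.35 (adjusted p = 0.00159).
A_72_P050056: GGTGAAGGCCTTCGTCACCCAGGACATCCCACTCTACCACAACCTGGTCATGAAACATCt
O7110: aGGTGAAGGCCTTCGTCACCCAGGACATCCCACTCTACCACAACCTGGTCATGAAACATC

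SEPP1, the selenium carrier of plasma, had 13 positive differences of 0.13 to 0.25, of which 1 passed the threshold. At that probe, the lowest, median and highest levels were 3.04, 3.56 and 3.88 in low RFI pigs and 3.48, 3.83 and 4.35 in high RFI pigs fed the HF diet. They were 3.04, 3.62 and 3.94 in low RFI pigs and 3.32, 3.75 and 4.19 in high RFI pigs fed the LF diet, with overlap on both. The difference was 0.22 (SE 0.08, limma adjusted p = 0.0363), while the brightest SEPP1 probe gave 0.15 (adjusted p = 0.136). SEPW1, a selenoprotein known for its abundance in muscle, had 3 negative differences of -0.11 to -0.08. Of the methionine sulfoxide reductases, only MSRA and MSRB2 are among the 47 genes, and MSRA (0.07) and MSRB2 (-0.13 and -0.04) did not pass the threshold.

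Within the HF diet, the lines differed for 27 of the 180 antioxidant probes, against 6.39% of all tested probes. Of these, 22 showed more and 5 less signal in high RFI pigs, and with normexp background correction the split was 28 to 0. They belong to GLRX, GPX3, PRDX1, PRDX3, PRDX4, PRDX5 and TXNIP. Within the LF diet, 11 probes of GLRX, GSTK1, PRDX1, PRDX4 and SELM differed, against 2.47% of all tested probes, with 7 higher and 4 lower. The split was 7 to 0 with quantile normalization and with normexp background correction. All of these probes also differed over both diets, and 7 probes of GLRX, PRDX1 and PRDX4 differed on each diet. The line by diet interaction passed the threshold for no antioxidant probe and for 0% of all tested probes (limma), and an unadjusted p under 0.05 was reached by 1 of the 180 antioxidant probes (SELM O7110), a smaller share than the 1875 of all 42125 tested probes. Calls on a single diet are therefore not shown to differ between diets.

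**Figure D3:**
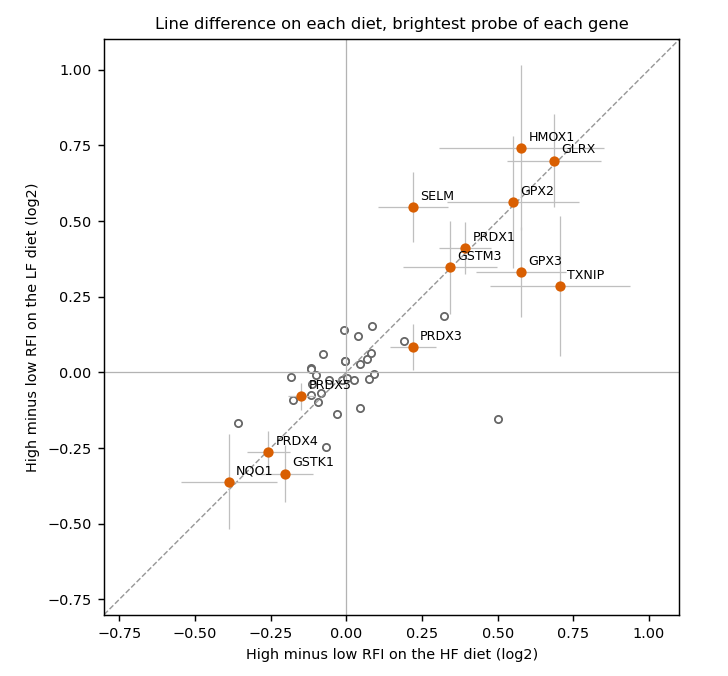
Line difference (high minus low RFI, log2 scale) at the brightest probe of each of the 44 genes on the HF diet (x axis) and the LF diet (y axis); filled points differed over both diets (limma adjusted p under 0.05), bars are 1 SE, and the dashed line marks equal differences. GLRX, PRDX1 and PRDX4 lie near the line, SELM (0.22 and 0.55) above it and TXNIP (0.71 and 0.28) below it.

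The diets themselves gave 1 antioxidant probe past the threshold, against 0.420% of all tested probes. It was the brighter PRDX1 probe, which was lower on the HF diet than on the LF diet by 0.26 in absolute value (HF minus LF, -0.26, SE 0.06, limma adjusted p = 0.0350). The other PRDX1 probe, with the shared bases, gave -0.24 (adjusted p = 0.0535). The call was lost with 4 of the other settings, among them quantile normalization and normexp background correction. PRDX1 was thus lowest in low RFI pigs fed the HF diet and highest in high RFI pigs fed the LF diet, while the high RFI pigs on the HF diet and the low RFI pigs on the LF diet had medians of 3.94 and 3.82. At an unadjusted p under 0.05 there were 17 of the 180 antioxidant probes (limma), a smaller share than the 5513 of all 42125 tested probes.

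Pairs of genes that work together were compared pig by pig, at the brightest probes and after removal of the mean of each line and diet, in 6 pairs. SOD2 and PRDX3, the mitochondrial dismutase and peroxiredoxin, had a Pearson r of 0.43 over 48 pigs (permutation p = 0.0019, adjusted p = 0.0114 over the 6 pairs) and a Spearman rho of 0.40 (permutation p = 0.00495, adjusted p = 0.0297). Without the 2 pigs farthest from the median of SOD2, r was 0.31 (permutation p = 0.0339, adjusted p = 0.203 over the 6 pairs). It kept its sign but no longer passed the threshold. It was 0.42 with the slide means removed (adjusted permutation p = 0.0209). It no longer passed with the scan day means removed (r 0.32, adjusted permutation p = 0.145), with quantile normalization (0.31, adjusted permutation p = 0.130) or with centring on the 75th percentile (0.36, adjusted permutation p = 0.0715). For the other 5 pairs, r was 0.24 for TXN and TXNRD1, 0.16 for GCLC and GCLM, 0.15 for SEPW1 and GPX1, -0.02 for HMOX1 and NQO1 and -0.25 for SEPP1 and GPX3, with a lowest adjusted permutation p of 0.209 for r and 0.378 for rho.

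Other genes around the same chemistry were read from 6 lists of 101 genes, 73 of them with tested probes. High RFI pigs had a higher level at 12 and a lower level at 15 of the 174 probes, with a median difference of -0.06. This was 15.5% in all, near the 16.4% of all tested probes (6.57% higher and 9.85% lower). The split was 13 to 9 with quantile normalization and 14 to 5 with normexp background correction. In the list for NADPH supply, 4 of 23 probes were higher and none lower (median 0.04), among them ME1, the malic enzyme of the cytosol (0.41, limma adjusted p = 0.00166). Of the oxidant producers, 3 of 19 were higher and 1 lower (median 0.13). The NADPH oxidase subunits NCF4 (0.69, above background on 40 arrays) and CYBA (0.49) were among the higher ones, and the lower one was another CYBA probe (-0.15). Metal binding proteins had 2 of 32 higher and 3 lower (median -0.04), and both higher probes were of the metallothionein MT1A, the brighter with a difference of 1.50 (SE 0.40, adjusted p = 0.00735). Other selenoproteins and selenium factors had 3 of 45 higher and 2 lower (median -0.04), with SEPN1 (0.23) and SELS (0.22) higher and SECISBP2 (-0.26) and SEPX1 (-0.23) lower. Other thiol and glutathione enzymes had none of 47 higher and 8 lower (median -0.10), led by GPX8 (-0.27, adjusted p = 0.000257). NRF2 partners had 1 of 8 lower (median 0.00).

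Markers of other cell types moved with the line as well. In the macrophage list, all 10 genes had tested probes, high RFI pigs had a higher level at 14 of 23 probes, from 8 genes, and a lower level at none, and the median difference was 0.51. The mean level over the brightest probe of each of these genes ranged from -1.99 to -0.17 in low RFI pigs and from -1.20 to 1.39 in high RFI pigs fed the HF diet. With the LF diet it ranged from -1.38 to 0.04 in low RFI pigs and from -1.10 to 0.64 in high RFI pigs. Adipocyte markers had 10 of 30 probes higher (median 0.21), from 2 of the 7 tested genes. Their median line difference was 0.45 in pigs fed the HF diet and -0.16 in those fed the LF diet, which was not tested as a difference. Probes were also higher for fibroblast markers at 4 of 29 (13.8%, median 0.15) and endothelial markers at 2 of 17 (11.8%, median 0.03). Slow fibre markers had 1 of 43 higher (2.33%, median 0.13), a smaller share than over all tested probes. None was lower in these 4 lists. Fast fibre markers had 14 of 39 probes lower (median -0.11) and skeletal muscle markers 19 of 55 (median -0.09), with none higher. Red blood cell markers had 1 of 8 higher and 1 lower, and liver markers none of 30. Over all marker lists, 32 probes were higher and 34 lower, and with quantile normalization 32 were higher and 9 lower. The part of these cells in the antioxidant results was not tested.

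**Figure D4:**
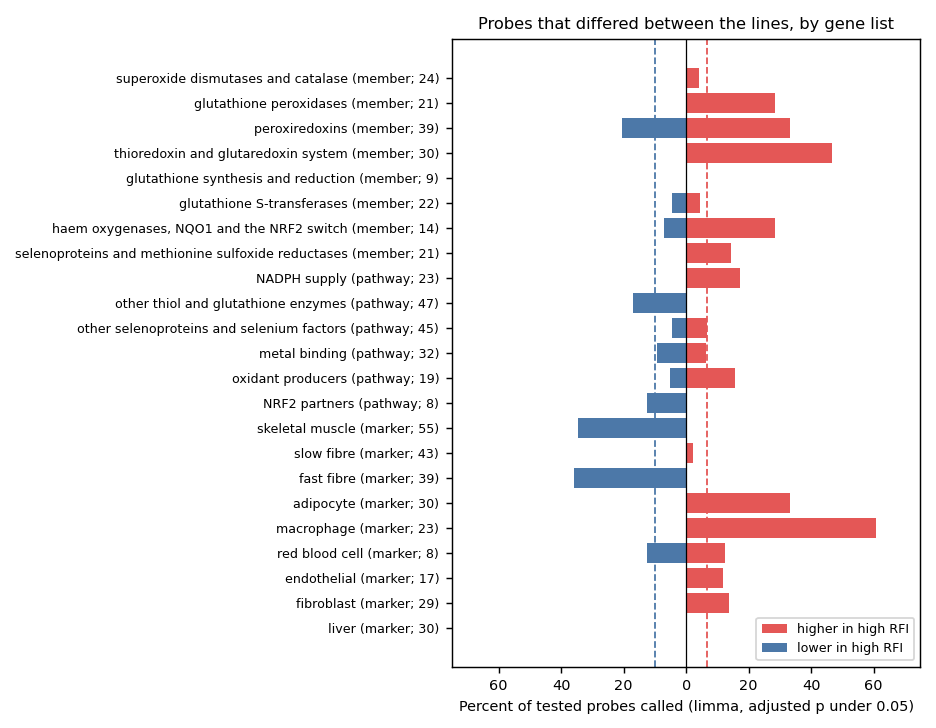
Percent of the tested probes of each list (y axis, with the number of tested probes) that differed between lines (limma adjusted p under 0.05), higher in the high RFI line to the right and lower to the left; dashed lines mark all tested probes (6.57% higher, 9.85% lower). The thioredoxin and glutaredoxin system reaches 46.7% higher and the macrophage markers 60.9%.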

How the data were processed

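Longissimus RNA of 48 pigs was hybridised on one-colour microarrays, 1 pig per array. The authors deposited spot intensities of the Agilent Feature Extraction software (version 10.7.3.1, per the file headers), with the background already subtracted. They also deposited a table of log2 values for 34472 probes. Set against the scanner values, it held each spot's median signal on the log2 scale, centred on the array median, and it served as an alternative. The submitters' processing notes name R 2.10.0.

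After removal of controls and of spots marked as outliers, replicate spots of a probe were averaged. Processed signals were put on the log2 scale, and the mean of the tested probes was subtracted array by array. Tested probes were the 42125 that stood well above background on 12 or more arrays, with 169 missing values in 168 probes. Genes were named from the columns of the array files. No genome of the pig was used here, so that probe positions are not given. The 4 groups came from the labels, and limma 3.58.1 (R 4.3.3) was fitted to the group means, p-values were adjusted by Benjamini-Hochberg, and the threshold was 0.05. The labels give 1 pig per array, so that p-values measure the spread between pigs, and the number of arrays limits the precision. Tables were handled in Python 3.11.15 (pandas 2.3.3, numpy 2.4.6), and correlations were tested with 100000 permutations, two-sided. Simulated data with known changes were used to check the fit. All 47 genes could be named, with full values for those with a probe past the threshold, the 3 with the largest absolute line difference and the 3 with the largest SD between pigs at the brightest probe, and for at most 10 genes of the other pathway lists, of which 1 is not reported here. The members, the 8 role groups, the 6 pathway lists, the 9 marker lists and the tests were chosen with earlier results of these data known. Alternatives were quantile normalization, centring on the 75th percentile, normexp background correction (offset 50), other filters on dim probes, outlier spots kept, slide or scan day in the fit, a variance analysis without moderation, the mean of a gene's probes and the deposited table.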

Additional observations from a re-analysis of the deposited data

How the results depend on the processing

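Of the 15 line differences of called genes, 8 kept their call in every alternative run (GLRX, GPX2, GPX3, GSTK1, HMOX1, PRDX1, PRDX4 and SELM). GSTM3, NQO1, PRDX3 and TXNIP lost it only without a filter on dim probes, PRDX5 also with quantile normalization and normexp, and SEPP1 and SOD2 without a filter and with the mean of the gene's probes. Without a filter, the antioxidant probes that differed between lines fell to 34. Those on the HF diet fell to 9 and those on the LF diet to 5. The genes at the brightest probe fell to 8, the pathway probes to 13 and the marker probes to 27. Antioxidant probes with an unadjusted p under 0.05 between lines (limma) fell as well, from 85 to 76, though more probes were tested. The cause of these losses was not tested. With slide as a block, 41 probes differed on the HF diet. With quantile normalization and with normexp, 7 differed on the LF diet. The marker probes that differed between lines over both diets numbered 41 with quantile normalization. The single probe that differed between diets became 0 with quantile normalization, normexp, no filter or the deposited table, and 2 with slide as a block, with scan day in the fit or with probes above background on all 48 arrays, and the cause was not tested. The 1 correlation past the threshold became 0 with quantile normalization, centring on the 75th percentile or scan day in the fit, and that of SEPW1 and GPX1 turned to -0.038 with quantile normalization. No direction of a called difference reversed. No paired analysis was possible because the pig numbers of the labels are not shared between groups. Signal over background limits what can be said of GSTA2 and TXN2, and of the 3 untested genes.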
